A study of Mus musculus with 36 samples.

Results

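Cholecystokinin, vasoactive intestinal peptide (VIP), and the tachykinins are neuropeptides that neurons release beside fast transmitters. The genes described here were the 4 precursor genes *Cck*, *Vip*, *Tac1*, and *Tac2* and the 6 receptor genes *Cckar*, *Cckbr*, *Vipr1*, *Vipr2*, *Tacr1*, and *Tacr3*. A gene was taken from the transcript clusters of the array that carry its symbol and no other. By this rule 9 of the 10 genes were measured, each by 1 of the 65956 clusters tested. The only gene-level cluster of *Cckar* also carries the symbol *Rnu7*, so *Cckar* was read from its exon-level probe sets alone.

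Male C57BL/6 mice of 8 weeks received chronic diazepam (DZP), a benzodiazepine that enhances the action of GABA at its type A receptors, or the lipid vehicle Intralipid (Ctrl). Both were injected into the peritoneum 2 times a day for 10 days, with the DZP dose given as 5 mg/ml in the labels and as 5 mg/kg in the methods. Cortex, hippocampus, and amygdala were taken from 3 mice per treatment, which gave 18 Affymetrix Mouse Transcriptome Arrays, 3 per treatment and region. The regions came from the same mice, and the labels do not say which arrays share a mouse.

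In the forebrain, *Cck* is used by excitatory neurons and by a class of GABAergic basket cells, and *Vip* marks interneurons that mainly inhibit other interneurons. *Tac1* encodes the precursor of substance P and neurokinin A and is abundant in striatal projection neurons and in the amygdala. *Tac2* encodes the precursor of neurokinin B in the mouse and is known from the central amygdala and the medial habenula. The cholecystokinin and tachykinin receptors signal mainly through Gq and phospholipase C, whereas the VIP receptors, which also bind the related peptide PACAP, signal mainly through Gs and cyclic AMP.

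The 250 bases before the start of the 4 precursor genes are shown because these genes fell into pairs by the region where each was highest. They are from RefSeq on GRCm38.p6, written 5′ to 3′ in the direction of the gene. Capitals mark TGACG, the half-site of the cyclic AMP response element, or its reverse complement CGTCA, and TATAAA, the TATA box. *Cck* and *Vip* had their highest signal in the cortex. The *Cck* window is chr9:121495695-121495944 on the minus strand and the *Vip* window is chr10:5638968-5639217 on the plus strand.
Cck: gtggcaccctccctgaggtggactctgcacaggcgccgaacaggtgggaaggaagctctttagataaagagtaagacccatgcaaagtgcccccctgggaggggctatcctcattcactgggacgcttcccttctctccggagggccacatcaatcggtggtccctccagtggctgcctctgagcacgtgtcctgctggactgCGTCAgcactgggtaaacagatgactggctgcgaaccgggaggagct
Vip: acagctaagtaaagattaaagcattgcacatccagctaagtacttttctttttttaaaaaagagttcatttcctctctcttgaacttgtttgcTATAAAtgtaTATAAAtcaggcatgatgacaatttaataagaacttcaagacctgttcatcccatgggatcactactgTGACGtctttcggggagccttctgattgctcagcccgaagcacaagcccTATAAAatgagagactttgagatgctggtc
*Tac1* and *Tac2* had their highest signal in the amygdala. The *Tac1* window is chr6:7554811-7555060 and the *Tac2* window is chr10:127724228-127724477, both on the plus strand.
Tac1: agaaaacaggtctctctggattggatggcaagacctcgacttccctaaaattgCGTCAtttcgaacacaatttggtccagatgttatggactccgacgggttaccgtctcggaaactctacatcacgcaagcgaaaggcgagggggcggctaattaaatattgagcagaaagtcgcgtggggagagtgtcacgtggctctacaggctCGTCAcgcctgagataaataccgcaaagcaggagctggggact
Tac2: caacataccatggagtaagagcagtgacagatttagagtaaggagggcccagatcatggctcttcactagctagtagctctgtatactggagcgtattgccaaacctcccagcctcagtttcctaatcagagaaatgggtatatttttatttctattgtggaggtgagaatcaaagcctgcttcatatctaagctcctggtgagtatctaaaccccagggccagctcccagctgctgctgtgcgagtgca
The search covered both strands. The half-site was found 1 time in *Cck*, 1 time in *Vip*, 2 times in *Tac1*, and 0 times in *Tac2*. Among the 9 genes with a promoter in the table, 6 held the half-site, compared with 17.8% of all 32851 windows of this length. The TATA box was found in *Vip*, with 3 copies of which the last began 30 bases before the start, and in *Tacr3*, that is in 2 of 9 genes against 12.4% of all windows. The full palindrome TGACGTCA, which contains the half-site on both strands, was in 0 of the 9 windows and in 1.55% of all windows. No motif searched was held by both genes of one pair and by neither gene of the other.

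Signals are given as signal intensity (log2), so that a difference of 1 is a doubling. Each gene is compared only with itself, because probes of different genes differ in brightness. The background was read from 5222 negative-control probe sets, whose median on an array lay between 6.46 and 6.62 and whose 95th percentile lay between 10.12 and 10.29. *Cck* was above this 95th percentile on 18 of 18 arrays, *Tac2* on 3, and *Cckbr* on 1, all others on 0. *Vip* and *Vipr1* were above the control median on 18 arrays, *Cckbr* and *Tac2* on 17, *Tac1* on 15, *Tacr3* on 7, *Tacr1* on 6, and *Vipr2* on 0.

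Markers of neighbouring tissue varied between arrays of a group. In the amygdala, the mean of 7 choroid plexus markers was 8.87 in the Ctrl replicate 3 and 5.83 to 6.05 in the other 5 arrays. It ranged from 5.83 to 8.95 in the Ctrl hippocampus, from 5.88 to 8.17 in the DZP hippocampus, and from 5.58 to 5.65 over the 6 cortical arrays. The mean of 13 markers of striatal projection neurons in the amygdala was 8.49, 8.88, and 7.92 in Ctrl and 9.38, 9.53, and 8.57 in DZP. Markers of each region were highest there for 7 of 11 cortical, 9 of 11 hippocampal, and 10 of 14 amygdalar genes in Ctrl, and for 7, 9, and 11 of them in DZP. The part of these differences in the results below was not tested, and the gene-level effects of DZP in the amygdala are given with and without the Ctrl amygdala replicate 3. In bulk tissue, fewer cells of a type and less RNA per cell cannot be told apart.

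All 9 genes differed between amygdala and cortex, in Ctrl and in DZP mice alike. The tachykinin genes *Tac1*, *Tac2*, *Tacr1*, and *Tacr3* were higher in the amygdala, and *Cck*, *Cckbr*, *Vip*, and *Vipr1* were lower there. These calls are by limma with Benjamini-Hochberg adjustment over all clusters at 0.05, and 15.5% of all clusters passed it in Ctrl (8.87% higher and 6.65% lower in the amygdala) and 20.4% in DZP (13.1% and 7.27%). Of the 9 genes, 5 were higher and 4 lower in both treatments. Between hippocampus and cortex, 4 genes were called in Ctrl, all lower in the hippocampus, where 15% of all clusters passed (6.89% lower). In DZP, 5 were called (12.3% of all clusters), 4 lower (5.69%) and 1 higher (6.57%). Between amygdala and hippocampus, 6 were called in Ctrl, all higher in the amygdala (10.3% of all clusters, 5.77% higher), and 5 in DZP (10.7%), 4 higher (6.25%) and 1 lower (4.46%). The Ctrl and DZP mice are different animals, and each treatment gives its own value for the same region contrast.

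**Figure D1:**
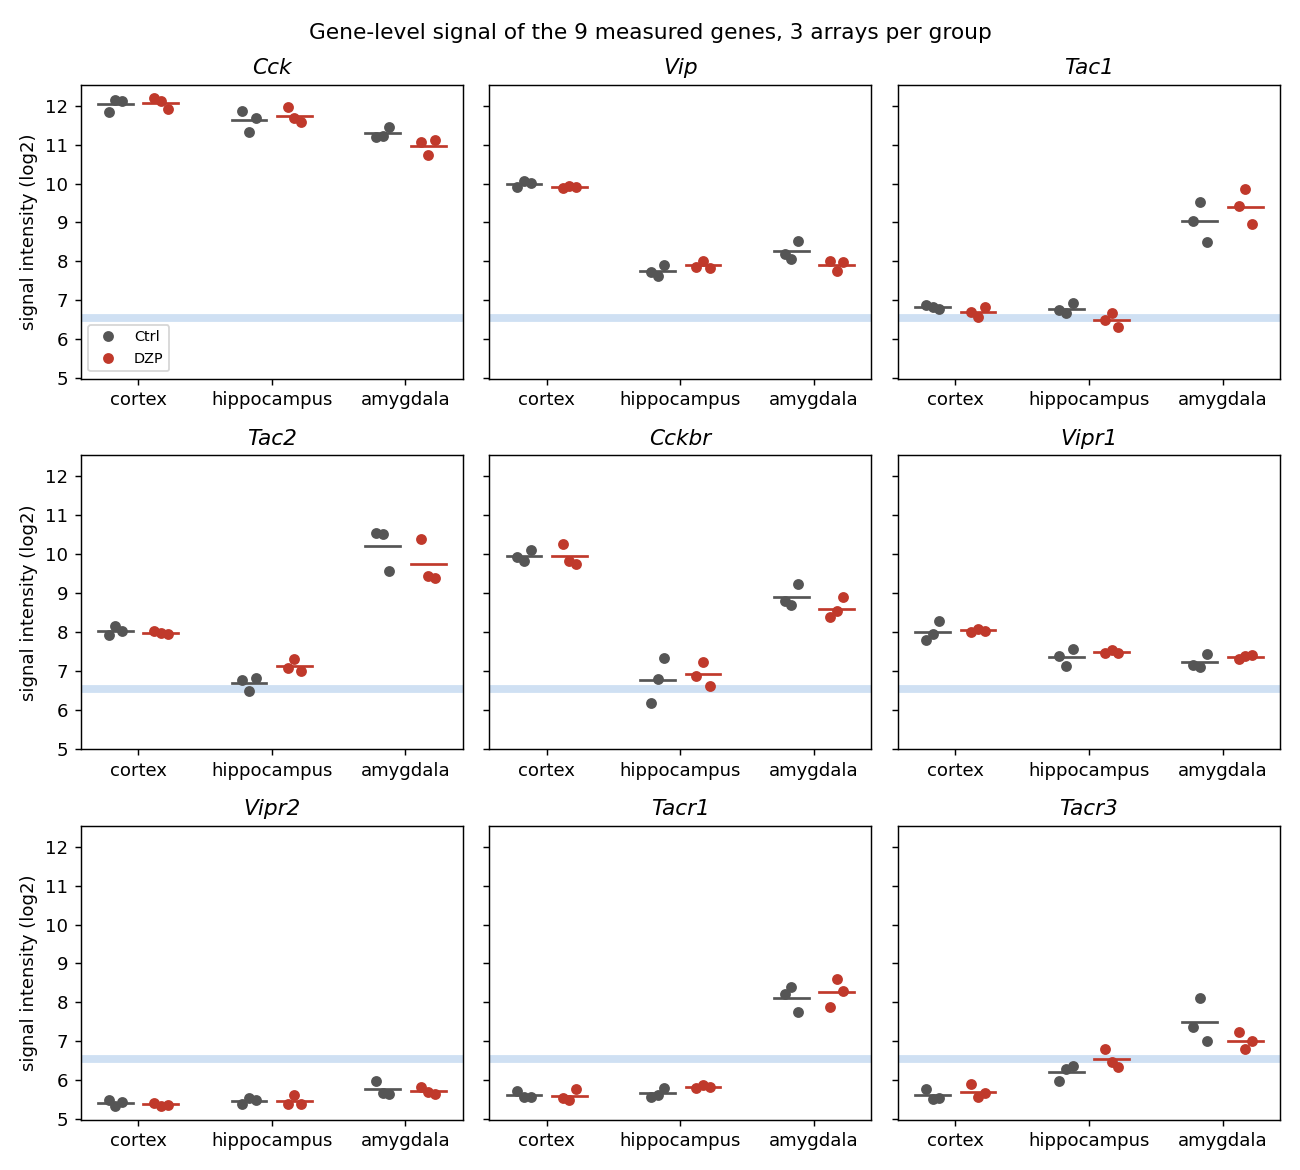
Gene-level signal intensity (log2) of the 9 measured genes in cortex, hippocampus, and amygdala. Each point is 1 array, bars are group means of 3 arrays, grey is Ctrl and red DZP, and the blue band spans the negative-control medians (6.46 to 6.62). Ctrl and DZP points of a region overlap for every gene except *Tac1* and *Tac2* in the hippocampus and *Cck* and *Vip* in the amygdala.

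*Cck* was bright in every region. Its Ctrl cortex arrays read 11.84, 12.15, and 12.12, the hippocampal arrays 11.86, 11.33, and 11.69, and the amygdalar arrays 11.20, 11.22, and 11.46. The amygdala lay below the cortex on every array, and the hippocampus overlapped the cortex. The amygdala was 1.67-fold lower than the cortex in Ctrl (log2 difference −0.74, 95% interval −1.06 to −0.43, adjusted p = 0.00203, limma). In DZP it was 2.15-fold lower (−1.11, adjusted p = 5.45e-05). The hippocampus differed from the cortex by −0.41 in Ctrl, which did not pass (adjusted p = 0.0807), so the order cortex, hippocampus, amygdala has no separated neighbours in Ctrl. In DZP the amygdala was also below the hippocampus (−0.77, adjusted p = 0.00244).

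*Vip* was highest in the cortex. Its Ctrl cortex arrays read 9.90, 10.08, and 10.01, the hippocampus 7.74, 7.63, and 7.92, and the amygdala 8.20, 8.06, and 8.52. The 3 regions did not overlap in Ctrl. The hippocampus was 4.70-fold lower than the cortex (−2.23, adjusted p = 9.24e-10) and the amygdala 3.33-fold lower (−1.73, adjusted p = 1.51e-08). The amygdala exceeded the hippocampus by 0.50 in Ctrl (adjusted p = 0.00668). In DZP the corresponding difference was 0.01 (95% interval −0.22 to 0.25). The change of this contrast with treatment was −0.48 (adjusted p = 0.414) and was not called. Without the Ctrl amygdala replicate 3 the Ctrl difference was 0.37 (adjusted p = 0.0354).

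*Tac1* was near the negative-control median in cortex and hippocampus and well above it in the amygdala. The Ctrl cortex read 6.87, 6.82, and 6.77 and the Ctrl hippocampus 6.75, 6.68, and 6.94, which overlap (difference −0.03, 95% interval −0.50 to 0.44). The Ctrl amygdala read 9.04, 9.54, and 8.50. It was 4.61-fold higher than the cortex (2.20, 95% interval 1.74 to 2.67, adjusted p = 2.18e-06) and 4.71-fold higher than the hippocampus (2.23, adjusted p = 3.47e-06). In DZP the same contrasts were 2.70 (adjusted p = 2.98e-07) and 2.91 (adjusted p = 3.34e-07). Of the DZP arrays, 2 of 3 in the cortex and 1 of 3 in the hippocampus were above the control median, so these differences are given without a fold.

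*Tac2* separated all 3 regions. Its Ctrl amygdala arrays read 10.55, 10.52, and 9.57, the cortical arrays 7.91, 8.15, and 8.02, and the hippocampal arrays 6.76, 6.47, and 6.82. The amygdala was higher than the hippocampus (3.53, 95% interval 2.99 to 4.06, adjusted p = 1.35e-07). Only 2 of the 3 Ctrl hippocampal arrays were above the control median, so differences from that group are given without a fold. The amygdala was 4.55-fold higher than the cortex (2.18, adjusted p = 9.73e-06). The hippocampus was lower than the cortex (−1.34, adjusted p = 0.00123). In DZP the hippocampus was 1.82-fold lower (−0.86, adjusted p = 0.0331), a call that was lost without any one of 5 of the 6 arrays compared, with adjusted p between 0.0738 and 0.0963. The exception was the DZP hippocampus replicate 2.

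Among the receptors, *Cckbr*, the main cholecystokinin receptor of the brain, read 9.92, 9.81, and 10.09 in the Ctrl cortex. It read 8.80, 8.70, and 9.22 in the amygdala and 6.17, 6.78, and 7.32 in the hippocampus, with no overlap between regions. The hippocampus was lower than the cortex (−3.18, 95% interval −3.70 to −2.67, adjusted p = 1.15e-07). Only 2 of the 3 hippocampal arrays were above the control median, so differences from that group are given without a fold. The amygdala was 2.05-fold lower than the cortex (−1.04, adjusted p = 0.00705) and higher than the hippocampus (2.15, adjusted p = 1.43e-05). The amygdala-to-cortex difference was −0.03 (adjusted p = 0.967) when the gene was read on each array as the median level of its 15 exon-level probe sets. This call therefore depends on the summary used. Tested 1 by 1, 5 of the 15 probe sets were called lower in the amygdala and 0 higher. Of the 15 means, 10 were lower and 5 higher, with a median difference of −0.99.

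*Vipr1*, a receptor for VIP and PACAP, read 7.80, 7.95, and 8.28 in the Ctrl cortex. Its hippocampal arrays read 7.38, 7.12, and 7.55 and its amygdalar arrays 7.16, 7.11, and 7.42. The cortex lay above both other regions, which overlapped each other. The hippocampus was 1.58-fold lower (−0.66, adjusted p = 0.00103) and the amygdala 1.72-fold lower (−0.78, adjusted p = 0.000208), and they differed from each other by −0.12 (95% interval −0.38 to 0.13). *Vipr2*, the other VIP receptor, stayed below the negative-control median on all 18 arrays, between 5.33 and 5.97. Its Ctrl cortex arrays read 5.49, 5.33, and 5.44, the hippocampal arrays 5.39, 5.56, and 5.48, and the amygdalar arrays 5.97, 5.68, and 5.66. The amygdala lay above the cortex by 0.35 (adjusted p = 0.0157) in Ctrl and by 0.35 (adjusted p = 0.0139) in DZP, and no fold is given because both regions were below background. The Ctrl call was lost without the Ctrl amygdala replicate 1 (adjusted p = 0.0956) or the Ctrl cortex replicate 2 (0.0757), and when only the groups compared were fitted (0.0854). The DZP call was lost without the DZP amygdala replicate 1 (0.0632) or the DZP cortex replicate 2 (0.0504).

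*Tacr1*, the receptor that prefers substance P, was above the negative-control median on the 6 amygdala arrays and on no other. The Ctrl amygdala read 8.21, 8.40, and 7.76, the cortex 5.73, 5.58, and 5.56, and the hippocampus 5.58, 5.62, and 5.81. Because cortex and hippocampus were below background, the difference is a bound, the bright mean against the control median of the dim arrays. The amygdala was at least 2.92-fold higher than the cortex (measured difference 2.50, adjusted p = 2.11e-08) and at least 2.90-fold higher than the hippocampus (2.45, adjusted p = 7.50e-08) in Ctrl. In DZP the bounds were at least 3.24-fold and at least 3.25-fold.

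*Tacr3*, the receptor that prefers neurokinin B, read 7.37, 8.10, and 7.005 in the Ctrl amygdala. The hippocampal arrays read 5.97, 6.29, and 6.36 and the cortical arrays 5.77, 5.52, and 5.55. The regions did not overlap. The amygdala was at least 1.88-fold higher than the cortex (measured difference 1.88, adjusted p = 9.66e-06) and at least 1.88-fold higher than the hippocampus (1.28, adjusted p = 0.000695). In DZP it was at least 1.37-fold higher than the cortex, and it differed from the hippocampus by 0.48 (adjusted p = 0.191). The hippocampus lay above the cortex by 0.59 in Ctrl (adjusted p = 0.0821) and by 0.83 in DZP (adjusted p = 0.0175), although both regions were near or below background. The DZP call was lost without the DZP cortex replicate 2 (adjusted p = 0.0741) or 3 (0.0529) or the DZP hippocampus replicate 1 (0.0858).

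**Figure D2:**
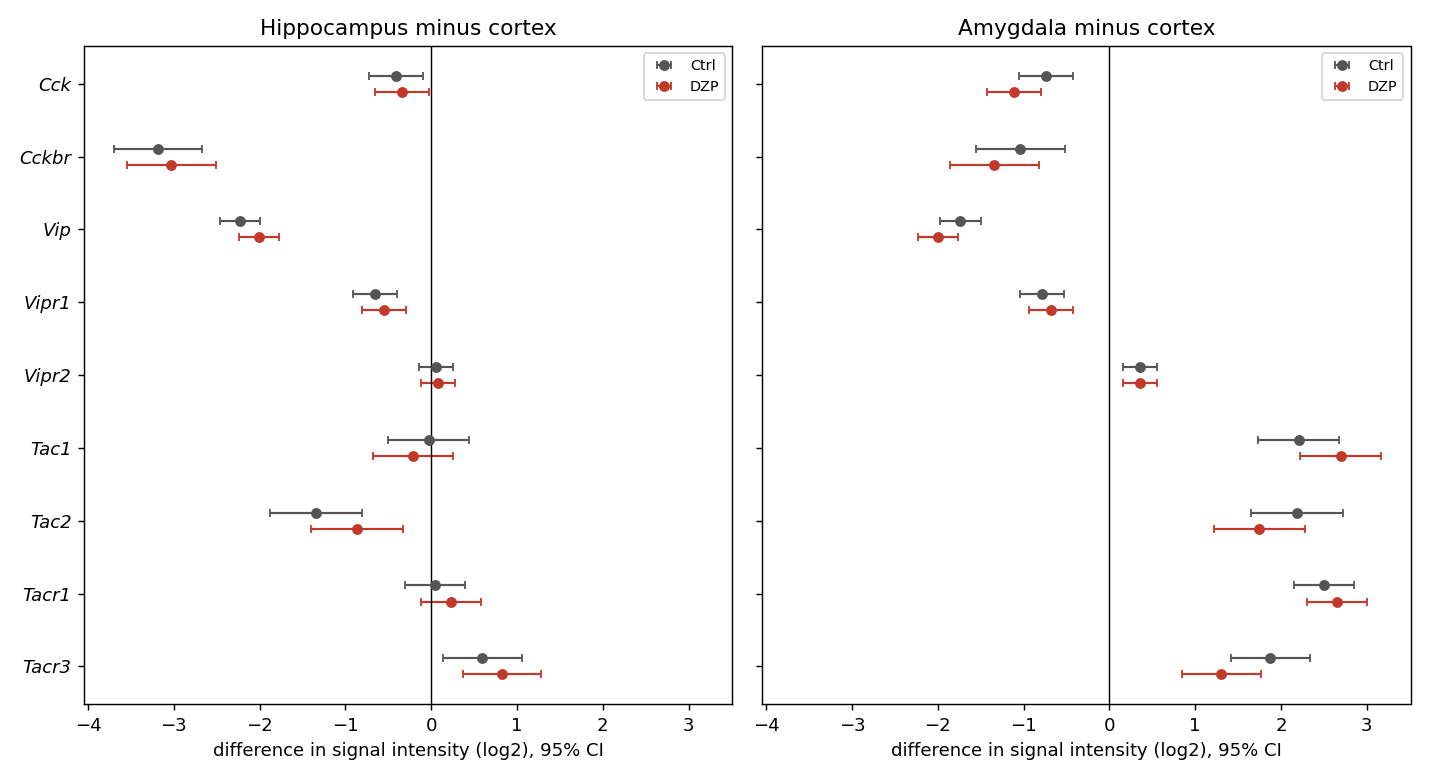
Difference of hippocampus minus cortex (left) and amygdala minus cortex (right) for each gene in signal intensity (log2), with 95% confidence intervals from limma, in grey for Ctrl and red for DZP. In the right panel the 4 tachykinin genes and *Vipr2* lie above 0 and the other 4 genes below 0 in both treatments.

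No gene of the 3 systems passed the test for an effect of chronic DZP treatment. The number called was 0 of 9 in the cortex, where 0.0364% of all clusters were called, 0 of 9 in the hippocampus (0.0728%), and 0 of 9 in the amygdala (0%). At an unadjusted p below 0.05, limma gave 0 genes in the cortex (7.83% of all clusters), 0 in the hippocampus (11.2%), and 3 in the amygdala (9.4%). The unpaired one-way ANOVA of the methods, run for each region and adjusted by Benjamini-Hochberg, called 0 in each region, and the criteria of the study (fold change of at least 1.5 and unadjusted p below 0.05) selected 0 in each (0.453%, 1.2%, and 0.214% of all clusters). Averaged over the 3 regions, 0 of 9 were called (0% of all clusters), with a lowest adjusted p of 0.683 (limma). This average joined arrays by replicate number, and whether a number marks a shared mouse is not known.

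In the cortex the 9 differences lay between −0.11 and 0.10, and no 95% interval reached below −0.58 or above 0.56. The cortical arrays of the precursor genes overlapped between treatments throughout. *Cck* read 12.19, 12.13, and 11.91 in the DZP cortex (difference 0.04, 95% interval −0.27 to 0.35). *Vip* read 9.89, 9.94, and 9.91 (−0.08, −0.32 to 0.15). *Tac1* read 6.71, 6.58, and 6.84 and *Tac2* 8.03, 7.97, and 7.95. The cortical receptor *Cckbr* read 10.25, 9.82, and 9.75 with DZP (0.00, 95% interval −0.52 to 0.52).

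In the hippocampus 7 of 9 means were higher with DZP and the median difference was 0.14, compared with −0.01 over all clusters. *Tac2* read 7.06, 7.31, and 6.999 with DZP, each above all 3 Ctrl arrays. The difference was 0.44 (95% interval −0.09 to 0.97, adjusted p = 0.550). *Tac1* read 6.51, 6.67, and 6.32 with DZP, each below all 3 Ctrl arrays, at a level where only 1 of the 3 exceeded the control median. The difference was −0.29 (95% interval −0.76 to 0.18, adjusted p = 0.684). Groups that do not overlap were found for 6.45% of all clusters upward and 9.69% downward in this region. *Tacr3* read 6.82, 6.46, and 6.34 with DZP (0.33, 95% interval −0.13 to 0.79), overlapping Ctrl by 1 array. *Cck* read 11.96, 11.67, and 11.59 (0.11), *Vip* 7.87, 8.00, and 7.83 (0.14), and *Cckbr* 6.88, 7.23, and 6.62 (0.15), all overlapping Ctrl.

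In the amygdala 6 of 9 means were lower with DZP and the median difference was −0.31, compared with 0.03 over all clusters. *Vip* read 8.00, 7.74, and 8.00 with DZP, each below the lowest Ctrl array of 8.06. The difference was −0.35 (95% interval −0.58 to −0.11, adjusted p = 0.378). *Cck* read 11.07, 10.73, and 11.11 with DZP, each below the lowest Ctrl array of 11.20 (−0.32, 95% interval −0.64 to −0.01, adjusted p = 0.520). Downward separation of this kind was found for 4.91% of all clusters. *Tacr3* read 7.25, 6.79, and 7.02 with DZP (−0.47, 95% interval −0.93 to −0.01, adjusted p = 0.520), overlapping Ctrl. *Tac2* read 10.39, 9.43, and 9.38 (−0.48, 95% interval −1.01 to 0.06), and *Tac1* read 9.41, 9.86, and 8.95 (0.38, 95% interval −0.09 to 0.85), both overlapping Ctrl. *Cckbr* read 8.38, 8.53, and 8.89 (−0.31, 95% interval −0.82 to 0.21). *Tacr1* read 7.89, 8.61, and 8.28 (0.14) and *Vipr1* 7.30, 7.39, and 7.40 (0.13).

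**Figure D3:**
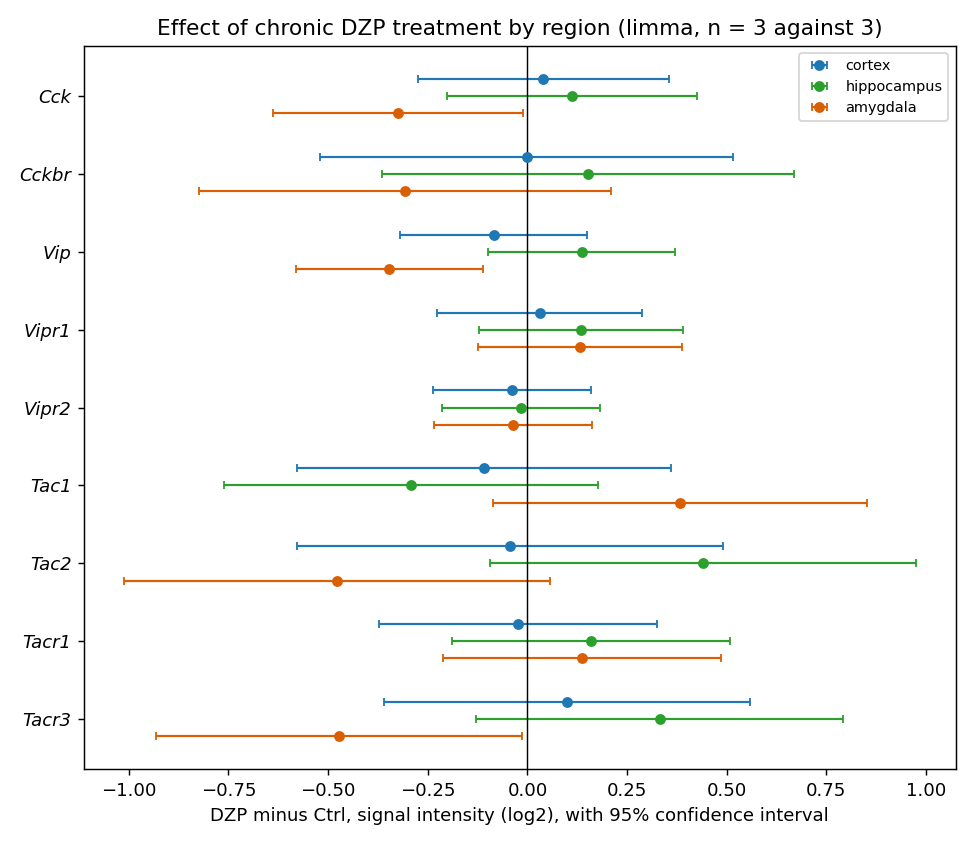
DZP minus Ctrl in signal intensity (log2) for each gene, with 95% confidence intervals from limma (3 arrays against 3), in blue for cortex, green for hippocampus, and orange for amygdala. In the amygdala the intervals of *Cck*, *Vip*, and *Tacr3* lie below 0 before adjustment, and all others include 0.

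The amygdala values depended on single arrays, among them the Ctrl replicate 3, the array with high choroid plexus markers. Of the 3 Ctrl amygdala arrays it also had the lowest means of amygdalar (7.93), striatal (7.92), oligodendrocyte (9.26), and cortical (9.90) markers. Its mean of excitatory neuron markers was the highest of the 3 (10.68). Which of these differences goes with the gene values was not tested. This array had the lowest signal of the 3 Ctrl amygdala arrays for *Tac1*, *Tac2*, *Tacr1*, *Tacr3*, and *Vipr2*, and the highest for *Cck*, *Cckbr*, *Vip*, and *Vipr1*. Without it, the DZP difference of *Tac2* grew to −0.80 (95% interval −1.27 to −0.33, adjusted p = 0.270) and that of *Tacr3* to −0.72 (−1.15 to −0.28, adjusted p = 0.276). The difference of *Vip* shrank to −0.22 (−0.44 to 0.00, adjusted p = 0.449), of *Cck* to −0.24 (adjusted p = 0.591), and of *Tac1* to 0.12 (adjusted p = 0.847). The difference of *Cckbr* shrank to −0.15 (adjusted p = 0.854) and that of *Vipr1* grew to 0.23 (adjusted p = 0.514). *Tacr1* went from 0.14 to −0.05 without it and *Vipr2*, below background, from −0.04 to −0.09. None of the 9 was called with or without it. Other arrays moved these values as well, and *Tacr1* was −0.04 without the DZP amygdala replicate 2. Over 16 alternatives of processing and left-out arrays, the difference ranged from −0.81 to −0.07 for *Tac2* and from −0.74 to −0.17 for *Tacr3*. For *Tac1* the range was 0.12 to 0.64. The *Tac2* difference also depended on the summary used. With all arrays, the median of the exon-level probe sets gave −0.07 for *Tac2* and −0.74 for *Tacr3*. Within the DZP amygdala, *Tac2* was 10.39 in replicate 1 and 9.43 and 9.38 in the other two, while choroid plexus markers were 5.87, 5.93, and 5.97.

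*Tac1* varied over the amygdala arrays beside the striatal markers. The array with the lowest *Tac1* signal, Ctrl replicate 3 with 8.50, had the lowest striatal marker mean of 7.92, and the array with the highest, DZP replicate 2 with 9.86, had the highest mean of 9.53. Of the 13 markers of striatal projection neurons measured, 12 were higher on average with DZP. Their median difference was 0.82, and 0 were called. *Drd1*, a dopamine receptor of these neurons, differed by 0.93 (adjusted p = 0.165) and *Gpr6* by 0.82 (adjusted p = 0.176), both with all DZP arrays above all Ctrl arrays, as for 8.16% of all clusters. Such separation was part of the rule by which genes of the lists were named. The paper, from the same arrays, already listed *Gpr6* and *Drd1* (there *Drd1a*) among the genes raised by DZP in the amygdala. Oligodendrocyte markers had a median difference of 0.40 in the same arrays. The part of these differences in the *Tac1* values was not tested.

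**Figure D4:**
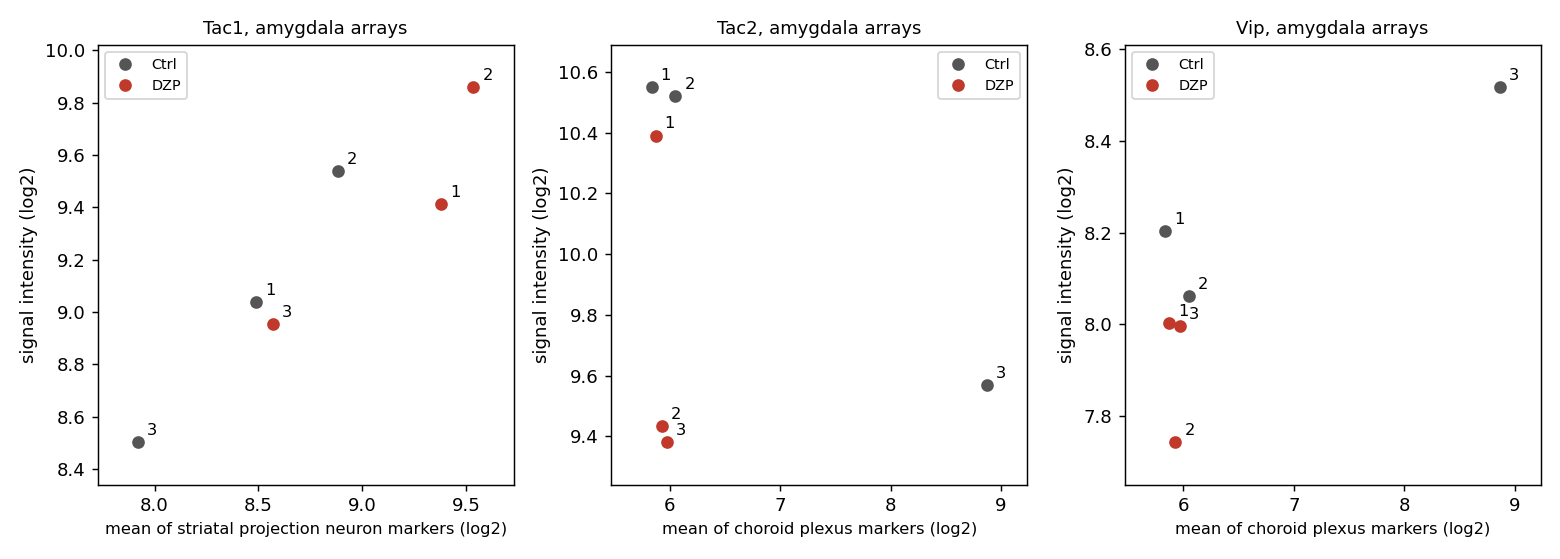
Signal intensity (log2) on the 6 amygdala arrays, Ctrl in grey and DZP in red with replicate numbers, for *Tac1* against the mean of 13 striatal markers (left) and for *Tac2* (middle) and *Vip* (right) against the mean of 7 choroid plexus markers. *Tac1* is lowest where the striatal mean is 7.92 and highest where it is 9.53, and the Ctrl replicate 3 stands apart at a choroid plexus mean of 8.87.

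The effect of DZP was compared between regions as an interaction. For amygdala minus hippocampus, the effects differed by −0.92 for *Tac2* (95% interval −1.67 to −0.16, adjusted p = 0.463), −0.80 for *Tacr3* (−1.45 to −0.15, adjusted p = 0.454), −0.48 for *Vip* (−0.81 to −0.15, adjusted p = 0.414), and 0.67 for *Tac1* (0.01 to 1.34, adjusted p = 0.531). These were the 4 genes with an unadjusted p below 0.05, where 9.31% of all clusters had one, and 0 of 9 were called (0.0121% of all clusters). The neurokinin B precursor and its receptor had the same signs, positive in the hippocampus and negative in the amygdala, without passing the test in either. *Cck*, its receptor *Cckbr*, and *Vip* had these signs too, so the pattern was not particular to *Tac2* and *Tacr3*. Without the Ctrl amygdala replicate 3, the effects in amygdala and hippocampus differed by −1.24 for *Tac2* (−1.87 to −0.61, adjusted p = 0.267), −1.05 for *Tacr3* (−1.64 to −0.46, adjusted p = 0.281), and −0.36 for *Vip* (−0.65 to −0.06, adjusted p = 0.393). For *Tac1* the value shrank to 0.41 and its interval then included 0 (−0.17 to 1.00, adjusted p = 0.601). For hippocampus minus cortex and amygdala minus cortex, 0 of 9 were called (0.00455% and 0% of all clusters) and 0 had an unadjusted p below 0.05 (8.96% and 7.39%). Without that array, the intervals of amygdala minus cortex left out 0 for *Tac2* (−0.76, −1.39 to −0.12, adjusted p = 0.477) and *Tacr3* (−0.82, −1.40 to −0.23, adjusted p = 0.420). Intervals are given here for the removal of this array only, and other arrays also moved the amygdala effects. The DZP difference of *Tacr3* in the amygdala ranged from −0.74 to −0.17 over 16 alternatives. With an array left out, 0 of 9 were called for these contrasts.

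The exon-level data hold 183 probe sets of the 10 genes, of which 78 span exon junctions. They come from the same arrays and are no independent evidence. In Ctrl, 90 of the 183 differed between amygdala and cortex (10.6% of all 719071 probe sets, 5.13% higher and 5.44% lower), 59 between amygdala and hippocampus (7.09%), and 38 between hippocampus and cortex (9.03%, 4.96% lower). The share of a gene's probe sets that were called varied with the contrast. For *Vip*, 12 of 14 probe sets were lower in the amygdala than in the cortex and 10 of 14 lower in the hippocampus, whereas between amygdala and hippocampus 2 were higher and 1 lower. For *Tac2*, 13 of 16 were higher in the amygdala than in the cortex and 14 of 16 higher than in the hippocampus, and 7 of 16 were lower in the hippocampus than in the cortex. For *Tacr1* 9 of 11 and for *Tacr3* 8 of 10 were higher in the amygdala than in the cortex. For *Cck*, 5 of 9 were lower in the amygdala than in the cortex, and 0 of 9 differed between hippocampus and cortex or between amygdala and hippocampus.

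Between amygdala and cortex in Ctrl, *Tac1* was the precursor gene with probe sets called both ways, 14 of 23 higher and 2, both junctions, lower. The brightest change was an exon region that read 16.64, 17.45, and 16.09 in the Ctrl amygdala and 11.96, 11.85, and 12.12 in the cortex, a difference of 4.75 (adjusted p = 6.46e-08). The lowest was a junction that read 7.65, 8.10, and 8.34 in the Ctrl amygdala and 9.65, 9.67, and 9.22 in the cortex, a difference of −1.48 (adjusted p = 0.0309). It was also lower in DZP (−1.39, adjusted p = 0.0319). Exon-level values of different probe sets are on scales of their own, and whether the junction reads *Tac1* alone was not tested.

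**Figure D5:**
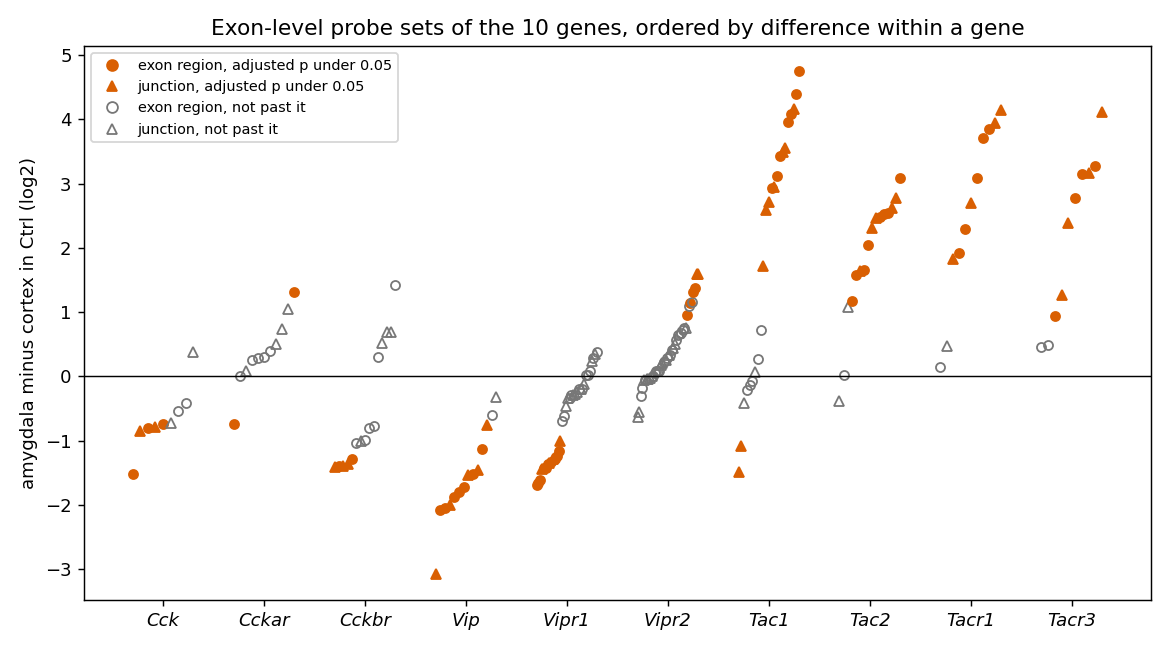
Amygdala minus cortex in Ctrl (log2) for the 183 exon-level probe sets of the 10 genes, ordered by value within each gene. Circles are exon regions, triangles junctions, and filled orange marks an adjusted p under 0.05 (90 probe sets). *Tac1* spans −1.48 to 4.75, whereas every *Vip* probe set lies below 0.

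*Cckar*, the cholecystokinin receptor better known from the gut, had 11 exon-level probe sets of its own. Their median on an array lay between 4.72 and 5.51, and in Ctrl 1 was higher and 1 lower in the amygdala than in the cortex. The gene-level cluster it shares with *Rnu7* read 5.12 to 5.53 on the 18 arrays, under the control median.

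For DZP, 0 of the 183 probe sets were called in the cortex, hippocampus, or amygdala by limma, where 0%, 0.0533%, and 0.000278% of all probe sets were called. At an unadjusted p below 0.05 there were 6, 16, and 17, that is, beside 5.77%, 12.1%, and 8.25% of all probe sets. The lowest adjusted p was 0.104, for a *Vip* junction in the hippocampus. This junction read 14.14, 14.65, and 14.13 in Ctrl and 12.56, 12.16, and 13.56 with DZP, so that the DZP arrays all lay lower (−1.55), while only 7 of the 14 *Vip* probe sets had a lower mean. Without the DZP hippocampus replicate 3 it was called (−1.95, adjusted p = 0.00639), as were the *Tac1* junction described above (−1.67, adjusted p = 0.0149) and a *Vipr1* exon region (1.05, adjusted p = 0.0123), and 12739 of all probe sets were called then instead of 383. That array had the low choroid plexus mean of 5.88, against 8.01 and 8.17 in the other 2 DZP hippocampus arrays, and the part of this in the calls was not tested. In the amygdala a *Vip* exon region read 10.00, 9.65, and 10.28 in Ctrl and 8.54, 9.47, and 8.87 with DZP (−1.01, adjusted p = 0.365). By sign alone, DZP means in the amygdala were above Ctrl for 21 of 23 *Tac1* probe sets and below it for 14 of 16 of *Tac2* and 8 of 9 of *Cck*. In the hippocampus they were above it for 9 of 10 of *Tacr3*. These splits were picked as the most uneven ones. Over all 183 probe sets, 86 means were higher and 97 lower in the amygdala, and 97 higher and 86 lower in the hippocampus. Probe sets of a gene share the same arrays and are not replicates, and the signs were not tested.

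The other genes of these pathways were read from lists. Of 214 list entries, 197 were measured, and 0 were called in any DZP contrast. Among 17 genes for peptide processing and dense-core vesicles, 14 were lower on average in the DZP amygdala. The median was −0.15, compared with 0.03 over all clusters. *Pcsk1*, a convertase that cuts neuropeptide precursors, differed by −0.50 in the amygdala (adjusted p = 0.421) and −0.47 in the cortex (adjusted p = 0.540). All its DZP arrays lay below all Ctrl arrays in both, as for 4.91% of all clusters in the amygdala and 7.34% in the cortex. *Scg2*, a granin of dense-core vesicles, differed by −0.31 in the hippocampus (adjusted p = 0.590), and *Scg3* by −0.23 in the amygdala (adjusted p = 0.349). Of the same list, *Qpct* was 0.20 higher with DZP in the cortex (adjusted p = 0.805) and *Pcsk1n* 0.21 higher averaged over regions (adjusted p = 0.400). The 11 peptidases had medians of −0.02, 0.08, and −0.08 in cortex, hippocampus, and amygdala, and the 23 measured genes of receptor coupling had −0.02, 0.02, and −0.02.

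Among 11 further ligands and receptors of the same families, *Adcyap1r1*, the receptor selective for PACAP, was 0.32 higher with DZP in the hippocampus (adjusted p = 0.172). Its groups did not overlap, as for 6.45% of all clusters upward. The 19 markers of *Cck* or *Vip* interneurons had medians of −0.05, −0.02, and −0.08. *Gad1*, which encodes a GABA-synthesizing enzyme, had no overlap between treatments in the cortex (−0.45, adjusted p = 0.389) or the hippocampus (−0.25, adjusted p = 0.509), with DZP lower. Such downward separation was found for 7.34% of all clusters in the cortex and 9.69% in the hippocampus. *Cnr1*, the cannabinoid receptor of *Cck* basket cells, differed by −0.19 in the amygdala (adjusted p = 0.602). Larger differences there were −0.38 for *Tnfaip8l3* and −0.21 for *Sncg*, both of the same list. *Crh*, also of this list, was 0.24 higher with DZP in the hippocampus (adjusted p = 0.596), where its groups did not overlap. In the amygdala *Crh* was lower with DZP (−0.18, adjusted p = 0.726).

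The genes most like each precursor gene were found among 9058 coding genes by Pearson's r over the 18 arrays. The arrays fall into 3 regions and 2 treatments, so the points are not independent and no p is given. For *Vip* they were *Herc6* (0.988), *Dkkl1* (0.988), and *Fhod3* (0.987), and for *Cck* they were *Apba2* (0.951), *Ttc19* (0.938), and *Dmd* (0.935). For *Tac1* they were *Spock3* (0.988), *Gpr83* (0.986), and *Penk* (0.986), and for *Tac2* they were *Bmp3* (0.971), *Evl* (0.966), and *Alcam* (0.964). When each group mean was removed, so that only differences between replicates remained, *Tac1* was most like *Adcy5* (0.926), *Rgs9* (0.917), and *Pde1b* (0.913). *Rgs9* is one of the striatal markers above. On this measure *Cck* was most like *Tubb2a* (0.902), *Vip* most like *Fezf2* (0.877), and *Tac2* most like *C1qa* (0.850).

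Among the members themselves, *Tac1* and *Tacr1* had the highest correlation over the 18 arrays (0.978), which fell to 0.713 with group means removed. *Cck* and *Vip* correlated with 0.701 over all arrays and 0.592 with group means removed. *Cck* and its receptor *Cckbr* had 0.264 and 0.103, and *Tac2* and its receptor *Tacr3* had 0.669 and 0.529.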

How the data were processed

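Total RNA (100 ng per sample) of cortex, hippocampus, and amygdala was hybridised to Affymetrix Mouse Transcriptome Arrays 1.0. The authors deposited log2 signal intensities per gene-level cluster and per exon-level probe set. The submitters' processing notes name Affymetrix Expression Console 1.4.1. Its algorithms for background correction, summarisation, and normalization are not given in the sources used here. All values entered without further scaling. Precision is limited by 3 arrays per group and by dim signals.

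The 6732 control probe sets were left out and 65956 gene-level clusters were tested, of which 30638 carry 1 symbol in the array annotation. The labels give each sample's treatment and region. One linear model with 6 groups was fitted in R 4.3.3 with limma 3.58.1 (files read by data.table, version 1.17.8), with empirical Bayes moderation and two-sided p-values. Benjamini-Hochberg adjustment ran over all clusters, or all 719071 exon-level probe sets, with a threshold of 0.05. The fit treats arrays of different regions as independent although they share mice. The average effect was tested on means over the 3 regions per treatment and number. If same-numbered arrays are not from a shared mouse, each mean mixes mice, and the spread of the means is not that between mice. The fit was tested on simulated data. A gene was named if it is a member, or if it was among up to 4 genes per list with the largest differences and groups that do not overlap. Region means, 95% intervals, and correlations were computed from the same values. Same-numbered arrays of a treatment correlated in their deviations from group means with r between −0.155 and 0.417. Outside the average over regions, numbers were therefore not taken to pair arrays in the main tests. Promoter sequences came from RefSeq on GRCm38.p6. The members and lists were chosen with earlier results of these data known. Alternatives in scaling, filter, weights, blocks, test, summary, and left-out arrays are given in the closing section.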

Additional observations from a re-analysis of the deposited data

How the results depend on the processing

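The counts of genes called kept within 1.5 times their values in all 133 recomputed counts that did not leave out an array, under centring, quantile normalization, a filter on dim clusters, separate fits, array weights, replicate blocks, the methods' one-way ANOVA, a trended and robust prior, and exon-level medians. The mean over all clusters of a gene was not run, since each gene has 1 cluster. With an array left out, 0 genes were called for DZP against Ctrl in any region, averaged over regions, or between regions, from a lowest of 0 to a highest of 0. The count for hippocampus against cortex in DZP ranged from 3 to 5, and it was 3 without the DZP cortex replicate 2 or 3 or the DZP hippocampus replicate 1, with *Tac2* and *Tacr3* lost. The count of exon-level probe sets called in the hippocampus ranged from 0 to 3. The ranges for Ctrl were 4 to 5 for hippocampus against cortex, 8 to 9 for amygdala against cortex, and 6 to 7 for amygdala against hippocampus, and for DZP 8 to 9 for amygdala against cortex and 5 to 6 for amygdala against hippocampus.

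For single genes in DZP against Ctrl and in the region contrasts in Ctrl, 519 values kept their side of the threshold with all arrays and 315 with an array left out, while 8 and 3 newly passed, 4 and 2 no longer passed, and 3 and 4 moved from a difference near 0. None changed sign where it was called or its interval left out 0. Beside the changes given with the results, the amygdala-to-hippocampus difference of *Vip* in Ctrl missed the threshold when only the groups compared were fitted (adjusted p = 0.0769). *Cck* in hippocampus against cortex in Ctrl passed it under array weights (0.0321), and *Vipr2* in amygdala against hippocampus passed it under quantile normalization (0.0301).

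With the replicate number as a block, 0 genes were called for DZP in each region, and 4, 9, and 6 for the region contrasts in Ctrl, as without it. With treatment and number as a fixed replicate block, 8 genes were called for amygdala against cortex in Ctrl, without *Vipr2* (adjusted p = 0.0681), and 6 for amygdala against hippocampus in DZP. Of 18 same-numbered pairs of arrays in different regions, 6 had a correlation over 0.1, and the consensus correlation was 0.00686. Outside the average over regions, the numbers were not taken to pair arrays in the main tests. The labels do not say whether they mark a shared mouse.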
